A study of Mus musculus with 144 samples.

Results

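The data described here are 12 libraries of polysomal RNA from the livers of wild-type mice, 6 taken at ZT06 and 6 at ZT18, out of 144 libraries in the study. They were chosen by their labels alone: wild type, polysomal RNA, and a collection time of ZT06 or ZT18. Zeitgeber time (ZT) counts hours from lights on, so under 12 h of light and 12 h of dark ZT06 is the middle of the light phase, when mice mostly rest, and ZT18 the middle of the dark phase, when they mostly feed. The animals were male C57BL/6J mice with free access to food, and no drug, diet or allele separated the 2 groups. Each library was made with a QuantSeq kit, which reads the 3′ end of poly(A) RNA, so a count stands for a transcript end and not for a stretch of gene. Besides polysomal RNA at 6 times of day (36 libraries), the study holds total and nuclear RNA of wild-type liver and total RNA of liver from Bmal1-/- mice, which lack a clock activator, at the same 6 times with 6 libraries each. The labels number the replicates 1 to 6 but do not say which fractions came from the same animal, so p-values measure the spread between these libraries.

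Polysomes are mRNAs with several ribosomes on them, and they sediment faster than free mRNA in a sucrose gradient. Here frozen liver was crushed in a buffer with cycloheximide, which stops ribosomes in place, and RNA was taken from the gradient fractions that held polysomes. An mRNA can therefore be high in polysomal RNA because the cell holds more of it or because more of it carries ribosomes, and total RNA gives the first of these. In liver the clock is a feedback loop in which CLOCK and BMAL1 (gene Arntl) activate Per, Cry and Nr1d genes through E-boxes, PER and CRY proteins block them, and NR1D1 and NR1D2 (REV-ERBs) repress Arntl, Clock, Nfil3 and Cry1 through ROR elements. Feeding, glucocorticoid hormone and body temperature add rhythms of their own.

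The 6 ZT06 libraries held 4645881 to 7000070 counts over genes, and the 6 ZT18 libraries held 4066545 to 8450694. Scaling factors by the trimmed mean of M values (TMM) ran from 0.970 to 1.099 at ZT06 and from 0.757 to 1.06 at ZT18, so the choice of scaling bears on every direction given here. Levels are scaled CPM, that is counts rescaled to a common library size, and changes are log2 of ZT06 over ZT18, so a positive value is higher at ZT06. A gene was called when its adjusted p was under 0.05 in edgeR's quasi-likelihood test over all genes that averaged 10 counts or more.

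Some libraries stood apart (CPM in this paragraph are per library total, without factors). Replicate 1 of both times differed from the rest: Scgb1a1, a secretory protein of airway epithelium, had 114 CPM in ZT06 replicate 1 and 201 in ZT18 replicate 1 and at most 0.432 in each of the other libraries, while Ppp1ca and Tmem150a had 1.57 to 2.66 CPM in replicate 1 and 119.6 CPM or more in each of the others. Replicates 1 to 3 also differed from replicates 4 to 6 in genes of the clock. Dbp had 8.28 to 15.5 CPM in ZT06 replicates 1 to 3 and 53.0 to 80.3 in ZT06 replicates 4 to 6, and Usp2 had 3.07 to 4.44 against 15.7 to 22.3. A test of whether the ZT06 to ZT18 change itself differed between the 2 sets of replicates called 0 of 10678 genes, with 387 (3.62%) at an unadjusted p under 0.05.

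Of 10678 genes tested, 236 (2.21%) were called, 90 higher at ZT06 (0.843%) and 146 higher at ZT18 (1.37%). A further condition of at least a 2-fold difference left 163 (1.53%). The median change of called genes was 1.19 among those higher at ZT06 and -1.12 among those higher at ZT18, and the smallest change called was 0.69 in size, beside a median standard error of 0.30. Scaled levels of the 6 ZT06 and 6 ZT18 libraries did not overlap at all for 155 of the 236. Over all tested genes 405 (3.79%) did not overlap, but in CPM per library total, without factors. The 2 counts are thus on different scales. With library totals and no TMM factors, the median change of all genes moved from -0.01 to 0.24, and 395 genes were called, 343 of them higher at ZT06 and 52 higher at ZT18. Of the 236 calls, 142 were shared with that scaling. Replicates 4 to 6 alone gave 298 calls and replicates 1 to 3 alone gave 5. Leaving out 1 library moved the count to between 93 (without ZT06 replicate 2) and 290 (without ZT18 replicate 1), and it was also more than 1.5 times lower without ZT06 replicate 6 (101), ZT18 replicate 6 (108), ZT18 replicate 5 (126) and ZT06 replicate 5 (149). All 236 called genes pointed the same way in both sets of replicates, except 1 that was not tested in replicates 1 to 3. This is a description, since the same libraries made the calls.

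**Figure D1:**
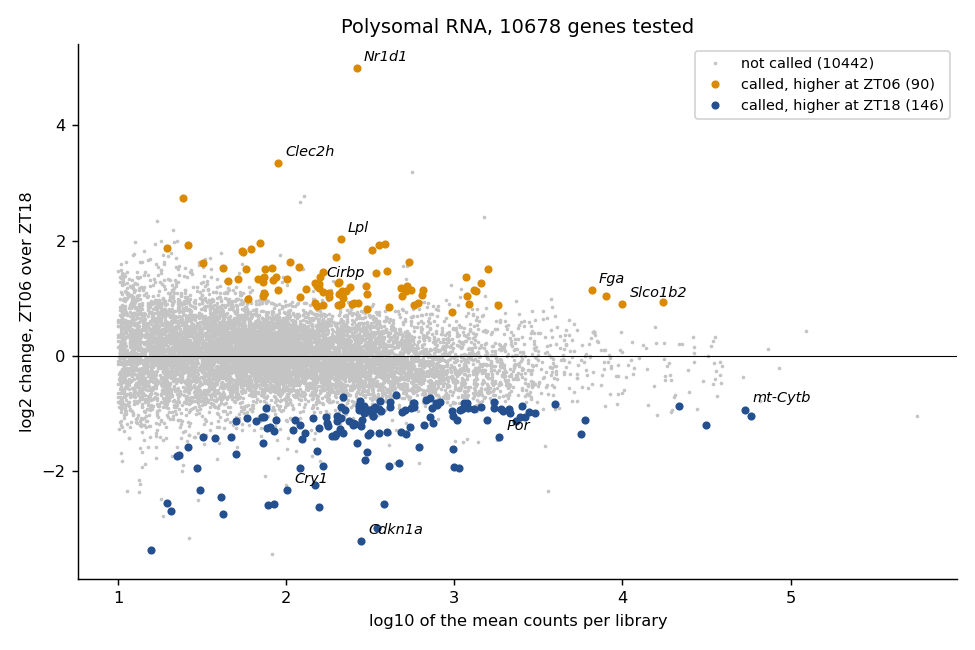
Each point is 1 of 10678 genes in polysomal RNA, with the log10 of its mean counts per library on the x axis and its log2 change, ZT06 over ZT18, on the y axis. The 90 genes called higher at ZT06 (orange) reach 4.99 at Nr1d1, and the 146 called higher at ZT18 (blue) include Cdkn1a at -3.22.

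Among 23 genes of the core clock, 19 were tested, 2 passed higher at ZT06 and 3 higher at ZT18. That was 26.3% called, beside 2.21% of all tested genes. This and the other gene lists below were chosen with earlier results of these data known. The share called therefore describes a list and does not test it. Nr1d1, the REV-ERB alpha repressor, had 61.5, 79.1 and 128 CPM (lowest, median and highest) at ZT06 and 0, 2.5 and 5.4 at ZT18. The groups lay far apart, and the change was 4.99 ± 0.40 (SE), a 31.8-fold difference (adjusted p = 1.25e-06). Its paralog Nr1d2 had 56.5, 109 and 133 CPM at ZT06 and 32.9, 35.5 and 46.2 at ZT18, again without overlap, for a change of 1.48 ± 0.21 (adjusted p = 0.000803). ZT06 replicate 1 was the highest library for Nr1d1 and the lowest ZT06 library for Nr1d2.

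Cry1, a repressor of CLOCK and BMAL1, was the clearest clock gene on the other side. It had 3.4, 6.5 and 10.4 CPM at ZT06 and 26.8, 28.6 and 47.9 at ZT18, a change of -2.33 ± 0.29 (adjusted p = 0.000168). All 6 ZT18 libraries were above all ZT06 libraries. Tef, a PAR bZIP activator that binds D-boxes, had 25.7, 78.4 and 106 CPM at ZT06 and 118, 150.2 and 258 at ZT18, a change of -1.21 ± 0.30 (adjusted p = 0.0366). Nr1d1, Nr1d2 and Cry1 kept their call in each of the 12 fits that left out 1 library; Tef kept it in 6 of them, with changes from -1.31 to -1.01.

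**Figure D2:**
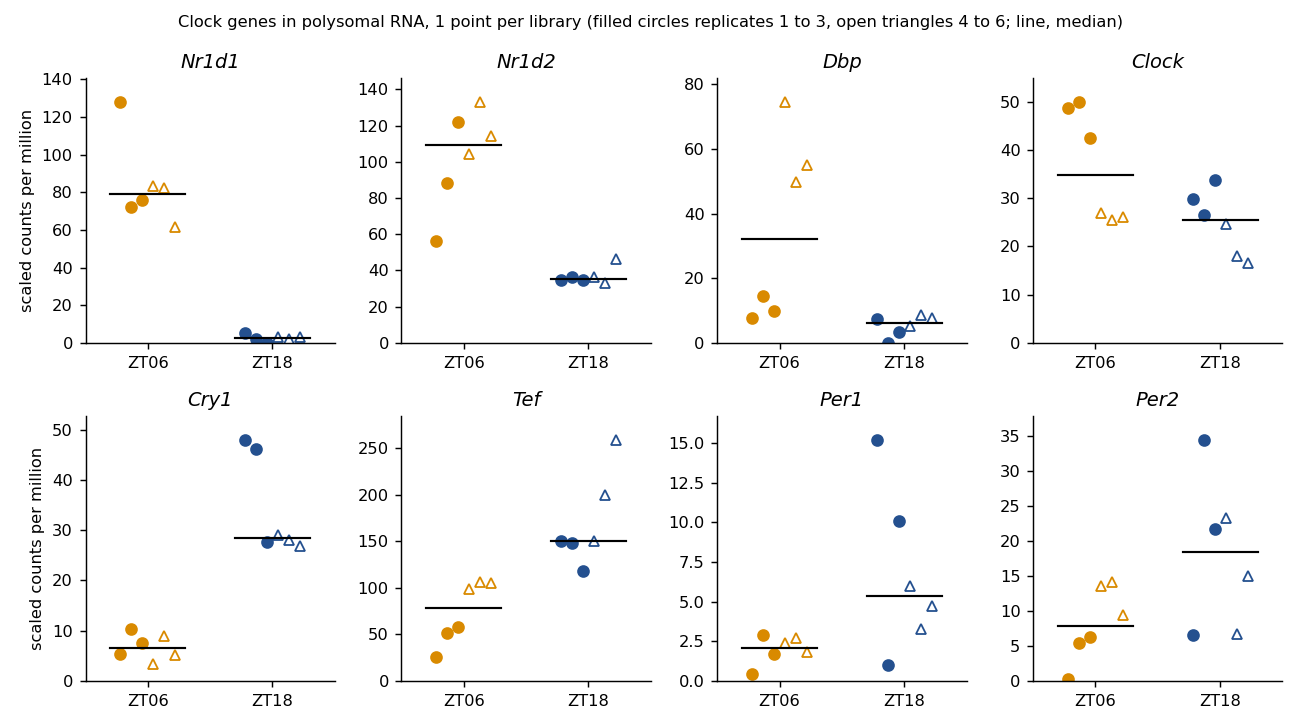
Scaled CPM of 8 clock genes in each polysomal library, with ZT06 in orange, ZT18 in blue, filled circles for replicates 1 to 3, open triangles for replicates 4 to 6 and a line at the median. Nr1d1, Nr1d2, Cry1 and Tef do not overlap between the times, while Dbp at ZT06 splits into 3 libraries from 7.64 to 14.4 and 3 from 49.7 to 74.4 CPM, and Clock, Per1 and Per2 overlap.

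The other 14 tested clock genes did not pass, and several of them spread widely within a time. Dbp, another PAR bZIP activator, had 7.6, 32.1 and 74.4 CPM at ZT06 and 0, 6.3 and 8.6 at ZT18; only the lowest ZT06 library reached into the ZT18 range, and the change was 2.68 ± 0.72 (adjusted p = 0.0802). Its change was 1.58 in replicates 1 to 3 and 3.07 in replicates 4 to 6. Arntl, the BMAL1 gene, was low at both times, with 1.7, 2.8 and 8.0 CPM at ZT06 and 3.4, 5.8 and 8.6 at ZT18 (change -0.75 ± 0.42, adjusted p = 0.384). In total RNA the Arntl change was -2.53 ± 0.37. Clock had 25.4, 34.7 and 49.8 CPM at ZT06 and 16.6, 25.5 and 33.7 at ZT18 (change 0.56 ± 0.25, adjusted p = 0.264).

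The period genes were low and scattered in polysomal RNA. Per1 had 0.4, 2.1 and 2.9 CPM at ZT06 and 1.0, 5.3 and 15.2 at ZT18, with a change of -1.74 ± 0.55 (adjusted p = 0.103). Per2 had 0.3, 7.9 and 14.1 CPM at ZT06 and 6.5, 18.4 and 34.4 at ZT18 (change -1.14 ± 0.59, adjusted p = 0.358), and Per3 changed by -0.93 ± 0.49 (adjusted p = 0.349). Within a set, Per2 had -2.40 in replicates 1 to 3 and -0.30 in replicates 4 to 6, and Per3 had -2.17 and -0.31. The repressor Nfil3 had -1.10 ± 0.41 (adjusted p = 0.185) and the activator Rora 0.61 ± 0.24 (adjusted p = 0.214). Cry2 (-0.18), Hlf (-0.40), Bhlhe40 (-0.36), Csnk1d (-0.06) and Csnk1e (0.02) had the smallest changes, with adjusted p-values from 0.411 to 0.986. Npas2, Bhlhe41, Ciart and Fbxl21 had means of 2.25 to 7.5 counts and were not tested; Bhlhe41 had 3 to 25 counts at ZT06 and 0 to 4 at ZT18.

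Promoters of the named clock genes were searched for the elements that the loop works through. Sequences are from RefSeq on GRCm38.p6, cover 250 bases before to 50 bases after the annotated start, and were found for 67 of 91 named genes. The letters searched on both strands were CACGTG (E-box), TTANGTAA (D-box) and TAGGTCA (ROR element). Capitals mark the match, and positions count from the annotated start.
Cry1: tgccggtggtCACGTGgggtgcatgc
Tef: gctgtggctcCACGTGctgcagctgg
Per1: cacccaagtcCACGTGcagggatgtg
Per3: ccgcccgcggTTATGTAAcccccgccgt
Nfil3: cgctcggaacTGACCTActaacacaca

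The Cry1 stretch is on chr10:85185099-85185124, minus strand, with its E-box at -60. The Tef stretch is on chr15:81802536-81802561, plus strand, with an E-box at -127, and the Per1 stretch on chr11:69098773-69098798, plus strand, with an E-box at -166. Per3 holds 2 D-boxes, and the one shown, at -158, is on chr4:151044806-151044833, minus strand. The Nfil3 match is the reverse complement of the ROR element, at -12 on chr13:52981035-52981061, minus strand. In this window an E-box was found in 5 of 18 clock promoters (27.8%), 10 of 67 promoters of genes called higher at ZT06 (14.9%) and 13 of 100 of genes called higher at ZT18 (13.0%), beside 850 of 7950 tested genes (10.7%) and 7.24% of all promoters in the table. D-boxes were in 1.55% and ROR elements in 2.21% of the promoters of tested genes. In the genes called higher at ZT18 these shares were 3.0% and 4.0%, from 3 and 4 promoters, and in those called higher at ZT06 both were 1.49%, from 1 promoter each. A match describes letters in a window, and nothing here measured binding.

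The 10 largest rises at ZT06 were taken among called genes that averaged 50 counts or more and did not overlap in CPM per library total. They were Nr1d1, Clec2h, Lpl, Bach2, Arrdc3, Fbxo21, Pde4b, Abca8b, Wdr6 and Gpcpd1, and all 10 kept their call without each of the 12 libraries in turn. Clec2h, a C-type lectin-like gene, had 15.9, 25.5 and 43.9 CPM at ZT06 and 0, 3.1 and 5.2 at ZT18. All ZT06 libraries were above all ZT18 libraries, and the change was 3.35 ± 0.54 (adjusted p = 0.0039). Lpl, the lipoprotein lipase that takes fatty acids from circulating triglyceride, had 25.5, 53.9 and 95.8 CPM at ZT06 and 5.65, 15.1 and 19.9 at ZT18 (change 2.03 ± 0.33, adjusted p = 0.00324).

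Arrdc3, an arrestin-domain protein of receptor trafficking, had 82.6, 99.9 and 151 CPM at ZT06 and 15.5, 30.01 and 38.9 at ZT18. Its groups were far apart, and the change was 1.95 ± 0.24 (adjusted p = 0.000155). Pde4b, a phosphodiesterase that degrades cyclic AMP, had 62.2, 85.6 and 111 CPM at ZT06 and 13.96, 24.4 and 32.3 at ZT18 (change 1.84 ± 0.22, adjusted p = 0.000115). Its change in total RNA was 0.97 ± 0.16 and in nuclear RNA 0.58. The F-box gene Fbxo21 (1.92), the transcription factor Bach2 (1.96), the transporter Abca8b (1.82), Wdr6 (1.79) and the glycerophosphocholine phosphodiesterase Gpcpd1 (1.71) completed the group.

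The 10 largest falls, that is levels higher at ZT18, included Cdkn1a, Eif4ebp3, Tsku, Fmo2, Ankhd1, Ddit4, Cry1, Usp2 and Tsc22d3. Cdkn1a, the cyclin-dependent kinase inhibitor p21, had 7.1, 10.5 and 12.5 CPM at ZT06 and 63.8, 85.7 and 167 at ZT18. The groups were far apart, with a change of -3.22 ± 0.27 (adjusted p = 1.25e-06). Tsku, a secreted leucine-rich repeat protein, had 1.7, 8.2 and 17.2 CPM at ZT06 and 39.5, 49.7 and 79.3 at ZT18 (change -2.64 ± 0.47, adjusted p = 0.00986). Its change was -4.48 in replicates 1 to 3 and -1.53 in replicates 4 to 6.

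Eif4ebp3, an inhibitor of the cap-binding factor eIF4E, and its upstream neighbour Ankhd1 are known to be joined in a read-through transcript, so the gene counts of the 2 may share reads. Eif4ebp3 had 8.7, 14.5 and 31.3 CPM at ZT06 and 33.6, 100.1 and 364 at ZT18, and Ankhd1 had 16.9, 21.8 and 34.0 and then 37.7, 109 and 369. Their changes were -2.998 ± 0.55 (adjusted p = 0.0137) and -2.58 ± 0.46 (adjusted p = 0.00986). In total RNA the same changes were -2.81 for Eif4ebp3 and -0.83 for Ankhd1. At single poly(A) sites the 2 differed: the site given to Eif4ebp3 changed by -2.98 ± 0.49 (adjusted p = 0.0138) and the site given to Ankhd1, which lies upstream of it, by -0.11 ± 0.23 (adjusted p = 0.899). The fall counted under Ankhd1 was thus not seen at that site. Fmo2, a flavin monooxygenase, had 3.1, 4.9 and 8.0 CPM at ZT06 and 11.5, 17.8 and 104 at ZT18. The highest value came from ZT18 replicate 1, without which the change went from -2.60 to -1.67; the call was lost without ZT06 replicate 2 or ZT06 replicate 6. Usp2, a ubiquitin protease driven by the clock, had 3.2, 9.2 and 20.9 CPM at ZT06 and 31.4, 40.3 and 114 at ZT18 (change -2.25 ± 0.50, adjusted p = 0.0315), with -4.09 in replicates 1 to 3 and -1.07 in replicates 4 to 6. It lost its call without ZT06 replicate 2, ZT06 replicate 6 or ZT18 replicate 6, with changes from -2.52 to -1.85 over the 12 fits.

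The median change of a list of 17 tested glucocorticoid targets was -1.07 beside -0.01 for all genes. The list had 4 members called higher at ZT18 and none higher at ZT06 (23.5% called, beside 2.21% of all tested genes). Besides Cdkn1a they were Ddit4, an inhibitor of mTORC1, Tsc22d3 (GILZ), a mediator of the hormone's anti-inflammatory action, and the transcription factor Zbtb16. Ddit4 had 2.3, 3.9 and 10.1 CPM at ZT06 and 14.8, 28.3 and 47.1 at ZT18 (change -2.57 ± 0.37, adjusted p = 0.00113). Tsc22d3 had 24.8, 39.1 and 59.4 CPM at ZT06 and 105.3, 143 and 178 at ZT18, without overlap (change -1.87 ± 0.22, adjusted p = 0.000115). Zbtb16 overlapped between the times and kept its call in 2 of 12 fits that left out 1 library (change -1.96 ± 0.51, adjusted p = 0.0474). Fkbp5 (-1.26 ± 0.36, adjusted p = 0.0699) and Lpin1 (-1.20 ± 0.33, adjusted p = 0.0654) did not pass. The median of this list was -1.30 in replicates 1 to 3, -0.41 in replicates 4 to 6, and -0.41 without ZT18 replicate 1. Metallothioneins Mt1 and Mt2, also in this list, ran from 11.3 to 1479 and from 2.8 to 1295 CPM within ZT18, and neither passed.

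Among 19 tested clock output genes, 6 were called higher at ZT18 and none higher at ZT06, with a median of -1.15. That was 31.6% called, beside 2.21% of all tested genes, in a list chosen with earlier results known. Tspan4, a tetraspanin, had 28.7, 65.3 and 79.0 CPM at ZT06 and 104.9, 173 and 325 at ZT18 (change -1.59 ± 0.28, adjusted p = 0.00416). Por, the reductase that feeds electrons to all microsomal P450 enzymes, had 144.3, 213 and 247 CPM at ZT06 and 344, 468 and 919 at ZT18. No library of Por overlapped with the other time, and the change was -1.42 ± 0.25 (adjusted p = 0.00496). The transporter Slc45a3 changed by -1.34 ± 0.28 (adjusted p = 0.0154), losing its call only without ZT06 replicate 6, and Pdxk, the kinase that activates vitamin B6, by -1.17 ± 0.28 (adjusted p = 0.0341). Noct (nocturnin) had 0.1, 1.7 and 6.0 CPM at ZT06 and 4.8, 9.5 and 21.9 at ZT18 (change -2.34 ± 0.59, adjusted p = 0.043). Noct kept its call only when ZT06 replicate 6 was left out, where the change was -3.09.

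Of 16 immediate early genes tested, 2 passed (12.5%, beside 2.21% of all tested genes), in opposite directions. Junb, an AP-1 subunit, had 20.6, 32.2 and 43.1 CPM at ZT06 and 6.2, 9.6 and 18.9 at ZT18 (change 1.54 ± 0.29, adjusted p = 0.00755). Dusp1, a phosphatase of MAP kinases, had 5.8, 14.8 and 23.9 CPM at ZT06 and 27.2, 43.2 and 65.5 at ZT18 (change -1.65 ± 0.31, adjusted p = 0.00765). Neither overlapped between the times. Of the cold-inducible pair, Cirbp had 33.3, 37.4 and 45.1 CPM at ZT06 and 11.3, 15.98 and 20.8 at ZT18 (change 1.24 ± 0.22, adjusted p = 0.00527), and Rbm3 had -0.63 ± 0.22 (adjusted p = 0.15).

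Genes of bile acid metabolism passed in both directions. Cyp7a1, the rate-limiting enzyme of bile acid synthesis, had 31.1, 37.9 and 46.1 CPM at ZT06 and 71.7, 88.5 and 155 at ZT18 (change -1.34 ± 0.21, adjusted p = 0.00174). Hsd3b7, a later enzyme of the same route, went the other way, with 241, 287 and 434 CPM at ZT06 and 123, 147 and 168 at ZT18 (change 1.15 ± 0.20, adjusted p = 0.0039). The uptake transporter Slco1b2 had 1622, 2218 and 2967 CPM at ZT06 and 823, 1201 and 1593 at ZT18. Its groups were apart by a narrow gap, with a change of 0.89 ± 0.23 (adjusted p = 0.0468), and 5 of 12 fits that left out 1 library kept the call. The other 15 tested members did not pass, and the median of all 18 was 0.13. Calls made up 16.7% of this list, beside 2.21% of all tested genes.

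Cholesterol and fat synthesis were mixed as well. Of 26 tested genes of cholesterol synthesis and LDL uptake, 1 passed higher at ZT06 and 2 higher at ZT18. That was 11.5% called, beside 2.21% of all tested genes. Ebp, a sterol isomerase, had 226, 277 and 435 CPM at ZT06 and 313, 683 and 747 at ZT18 (change -1.13 ± 0.23, adjusted p = 0.0135), where ZT18 replicate 4 was the 1 low library. Hmgcs1, an early enzyme of the pathway, changed by 1.38 ± 0.34 (adjusted p = 0.0376). Hmgcs1 spread from 129 to 637 CPM at ZT06 and kept its call in 4 of 12 fits without 1 library.

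Of 20 tested genes of de novo lipogenesis, 2 passed, both higher at ZT18. Dgat2, the last enzyme of triglyceride synthesis, had 250, 324 and 417 CPM at ZT06 and 504, 659 and 999 at ZT18 (change -1.07 ± 0.22, adjusted p = 0.0132). Its groups did not overlap. In the gluconeogenesis and glycogen list 2 of 23 passed (8.70%), both higher at ZT18. They were the glucose-6-phosphate transporter Slc37a4 (-1.36 ± 0.21, adjusted p = 0.00174) and the glycogen-targeting phosphatase subunit Ppp1r3b (-1.93 ± 0.43, adjusted p = 0.0315, kept in 4 of 12 fits). Slc37a4 had 49.2, 55.3 and 70.1 CPM at ZT06 and 85.9, 154 and 200 at ZT18.

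Among 31 tested PPAR alpha targets 3 passed (9.68%, beside 2.21% of all tested genes). The receptor gene Ppara itself was higher at ZT06, with 181, 212 and 285 CPM against 105, 123 and 161 (change 0.76 ± 0.19, adjusted p = 0.036, kept in 4 of 12 fits). The acyl-CoA thioesterases Acot3 (-2.75 ± 0.44, adjusted p = 0.00278) and Acot4 (-1.34 ± 0.30, adjusted p = 0.0215) were higher at ZT18. Acot3 was low, at 1.3 to 2.9 CPM at ZT06 and 3.8 to 24.3 at ZT18, without overlap. The fibrinogen genes Fga, Fgg and Fgb were the 3 of 21 tested acute phase genes that passed (14.3%), all higher at ZT06. Fga had 1193, 1335 and 2276 CPM at ZT06 and 419, 816 and 907 at ZT18 (change 1.14 ± 0.25, adjusted p = 0.0205), Fgg changed by 1.04 ± 0.25 (adjusted p = 0.0314) and Fgb by 0.92 ± 0.24 (adjusted p = 0.0461). The calls were kept in 10, 7 and 4 of 12 fits. Serum amyloid genes ranged widely within ZT06 (Saa1, 17.5 to 1967 CPM; Saa2, 3.6 to 939) and did not pass.

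In the detoxification lists 12.0% of xenobiotic and 8.33% of glutathione genes tested were called, beside 2.21% of all tested genes. Of 25 xenobiotic genes tested, 3 passed, all higher at ZT18: Por (above), Fmo5 (-0.93 ± 0.21, adjusted p = 0.0289) and Cyp2a5 (-1.04 ± 0.26, adjusted p = 0.0376). Gclc, the rate-limiting subunit of glutathione synthesis, had 317, 403 and 589 CPM at ZT06 and 181, 226 and 257 at ZT18 (change 0.89 ± 0.19, adjusted p = 0.0209), whereas Gsta2, a glutathione transferase, changed by -1.20 ± 0.29 (adjusted p = 0.0333). Bnip3, a mitophagy receptor, was the 1 of 29 autophagy genes that passed (3.45%), with 168, 248.6 and 290.1 CPM at ZT06 and 377, 449 and 537 at ZT18 (change -0.92 ± 0.19, adjusted p = 0.0139). No gene passed among 24 of insulin and growth signalling, 32 of the urea cycle and amino acid breakdown, 21 of iron and metal handling, 31 proteasome subunits, 77 mitochondrial ribosomal proteins, 75 nuclear-encoded respiratory chain genes, 30 secretory plasma proteins, 20 major urinary proteins or 3 nuclear-retained RNAs. The most counted members there were Igf1 (-0.11), Tdo2 (0.25), Trf (0.25), Psmb4 (-0.70), Mrpl34 (-0.88), Atp5g3 (-0.36), Alb (0.44), Mup13 (-0.18) and Malat1 (-0.53), with adjusted p-values from 0.0646 to 0.848.

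Ribosomal protein mRNAs code for the structural proteins of the ribosome. Of 79 cytosolic ribosomal protein genes tested, 78 had a change below 0 and 6 passed, all higher at ZT18, with a median of -0.57 and a range from -1.76 to 0.11. The share of all tested genes with a change below 0 was 50.6% and their median -0.01. The 79 genes were measured in the same libraries, so their signs are not independent. Their summed level was 3257, 6152 and 8227 CPM (lowest, median and highest library) at ZT06. At ZT18 it was 7106, 8625 and 14500 CPM, so the groups overlapped. Over all tested genes 2.21% were called, beside 7.59% of this list. In total RNA the median of the same 79 genes was -0.07 and none was called. The median in polysomal RNA was -0.67 in replicates 1 to 3 and -0.48 in replicates 4 to 6, and over the 12 fits without 1 library it ran from -0.74 to -0.38, with 2 to 8 members called. Library totals without TMM factors gave -0.29, where the median of all genes was 0.24, and 1 call.

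Rps14 had 228, 369 and 464 CPM at ZT06 and 608, 699.6 and 803 at ZT18. The groups were well separated, with a change of -0.98 ± 0.21 (adjusted p = 0.0188), beside -0.01 in total RNA. Rps21 had 154, 219 and 289 CPM at ZT06 and 337, 433 and 483 at ZT18 (change -0.91 ± 0.20, adjusted p = 0.0188). Rps16 had 20.7, 39.5 and 51.3 CPM at ZT06 and 67.7, 73.7 and 88.7 at ZT18 (change -0.95 ± 0.21, adjusted p = 0.0188). All ZT18 libraries were above all ZT06 libraries for these 3 genes. Rpl10 had 16.1, 27.2 and 49.1 CPM at ZT06 and 47.6, 68.4 and 80.9 at ZT18, with a small overlap (change -1.19 ± 0.24, adjusted p = 0.0132). Rps2 and Rplp2, the other members called, changed by -0.97 ± 0.22 (adjusted p = 0.0253) and -1.05 ± 0.23 (adjusted p = 0.0209). Rpl10 kept its call without each library in turn, Rps14 in 11, Rps16 in 10 and Rps21 in 9 of the 12 fits. Many ribosomal protein genes have processed pseudogenes with near-identical 3′ ends, so how reads were shared among copies could not be checked.

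Ribosomal protein mRNAs begin with a 5′ terminal oligopyrimidine (TOP) tract, a run of C and T at the start of the transcript through which the mTOR pathway controls their loading onto ribosomes. The annotated starts of 3 called genes are shown for that tract, from 10 bases before to 15 bases from the start on, with the longest run of C and T in capitals.
Rplp2: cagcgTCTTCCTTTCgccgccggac
Rps21: aggacccgCCCTCCTgcccaatagt
Rpl10: tacagtggaagataggccgCCTata

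These windows are chr7:141447641-141447665 for Rplp2, chr2:180257369-180257393 for Rps21 and chrX:74270806-74270830 for Rpl10, all on the plus strand of GRCm38.p6, from RefSeq. The longest runs are 10, 7 and 3 bases, so the annotated start of Rpl10 shows no tract in this window. Of 58 tested ribosomal protein genes with a start in the table, 20 (34.5%) held a run of 8 or more, beside 9.31% of 7950 tested genes. Rplp2, a protein of the ribosomal stalk, had 60.6, 133 and 162 CPM at ZT06 and 200.3, 239.6 and 336 at ZT18, without overlap.

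Of 18 other mRNAs with TOP tracts tested, 14 had a change below 0 and 1 passed, with a median of -0.27 in polysomal and -0.05 in total RNA. The one called was Eif3f, an initiation factor subunit, with 18.7, 27.4 and 31.9 CPM at ZT06 and 28.5, 49.3 and 114 at ZT18 (change -1.09 ± 0.28, adjusted p = 0.0466). It kept its call in 1 of 12 fits. Eef1a1, the main elongation factor, had -0.18 ± 0.19 (adjusted p = 0.679) and Rack1, a protein of the small ribosomal subunit, -0.73 ± 0.21 (adjusted p = 0.0659). In a list of 35 translation initiation genes 3 passed, all higher at ZT18. They were Eif4ebp3, which codes for an inhibitor of eIF4E (above), Eif1b (-0.94 ± 0.23, adjusted p = 0.0344) and Eif5a (-0.83 ± 0.21, adjusted p = 0.0391). Eif5a had 375, 556 and 714 CPM at ZT06 and 761, 971 and 1266 at ZT18. Eif1b kept its call in 5 and Eif5a in 4 of 12 fits. Calls made up 5.56% of other TOP mRNAs and 8.57% of the initiation list, beside 2.21% of all tested genes. The median of the initiation list was -0.15, and library totals turned it to 0.10. The median of other TOP mRNAs was then -0.02, with all genes at 0.24.

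Mitochondrially encoded mRNAs are translated inside mitochondria, on ribosomes of their own. All 9 tested were below 0, with a median of -0.88 beside -0.24 in total RNA. Of them 4 passed higher at ZT18 (44.4%, beside 2.21% of all tested genes called). mt-Cytb, a subunit of complex III, had 5239, 7538 and 9464 CPM at ZT06 and 10070.1, 13820 and 17019 at ZT18 (change -0.94 ± 0.23, adjusted p = 0.0349). The highest ZT06 library was just under the lowest ZT18 library. Subunits of complex I followed: mt-Nd1 (-0.88 ± 0.22, adjusted p = 0.036), mt-Nd3 (-1.13 ± 0.28, adjusted p = 0.0391) and mt-Nd4l (-1.06 ± 0.28, adjusted p = 0.048). These 4 kept their calls in 3 or 4 of 12 fits that left out 1 library, and none passed with library totals, where the median was -0.62.

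**Figure D3:**
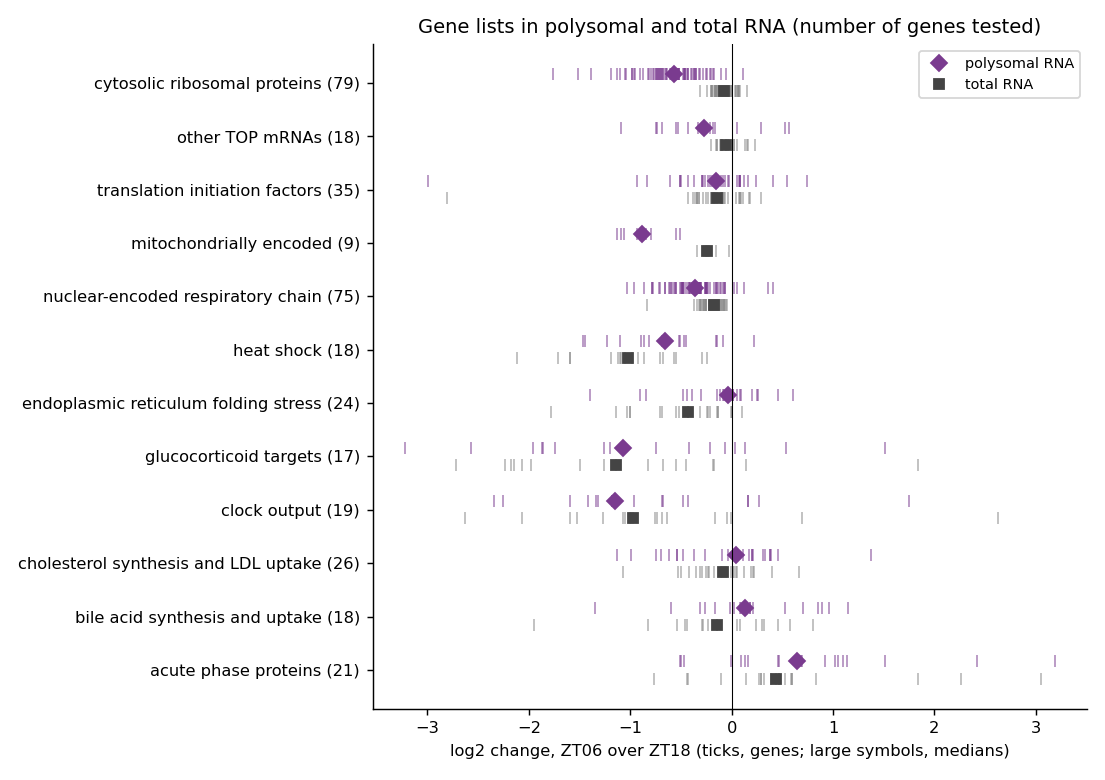
Log2 changes, ZT06 over ZT18, of the members of 12 gene lists in polysomal RNA (purple) and total RNA (grey), with ticks for genes, diamonds and squares for medians and the number tested in brackets. Cytosolic ribosomal proteins have medians of -0.57 and -0.07, and heat shock genes -0.66 and -1.02.

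Heat shock genes code for chaperones that refold damaged proteins. In total RNA 15 of 18 were called higher at ZT18, with a median of -1.02, and in polysomal RNA 1 of 18 was, with a median of -0.66. Over all tested genes 5.64% were called in total and 2.21% in polysomal RNA. The median standard error over all genes was 0.18 in total and 0.30 in polysomal RNA. The difference between the preparations itself passed for 0 of the 18 by edgeR's test, and its unadjusted p was under 0.05 for 2. The gene called in polysomal RNA was Hspa8, the constitutive HSP70, with 10.6, 13.7 and 15.6 CPM at ZT06 and 18.2, 29.3 and 71.4 at ZT18 (change -1.45 ± 0.29, adjusted p = 0.0132). Its groups did not overlap, and its change was -2.004 in replicates 1 to 3 and -0.66 in replicates 4 to 6. Hsp90aa1 had 30.2, 101 and 154 CPM at ZT06 and 74.5, 209 and 432 at ZT18 (-1.10 ± 0.45, adjusted p = 0.233), and Hsph1, a co-chaperone of HSP70, had -1.46 ± 0.41 (adjusted p = 0.069). The co-chaperone Bag3 had -0.14 in polysomal and -1.06 in total RNA, a difference of 0.93 ± 0.34 (unadjusted p = 0.011 in edgeR's quasi-likelihood test).

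Genes of protein folding in the endoplasmic reticulum lay close to 0 in polysomal RNA. Of 24 tested, 1 passed (4.17%, beside 2.21% of all tested genes). The median was -0.04 beside -0.43 in total RNA, where 7 were called higher at ZT18. Creld2, an isomerase induced by unfolded protein, was the one called in polysomal RNA, with 13.0, 16.2 and 44.4 CPM at ZT06 and 23.7, 47.1 and 101 at ZT18 (change -1.39 ± 0.36, adjusted p = 0.0475, kept in 3 of 12 fits). Hspa5 (BiP), the main chaperone of this compartment, had -0.30 ± 0.41 in polysomal and -1.03 in total RNA. Pdia6, a disulfide isomerase, had 0.60 ± 0.21 (adjusted p = 0.139) and 0.00 in total RNA.

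**Figure D4:**
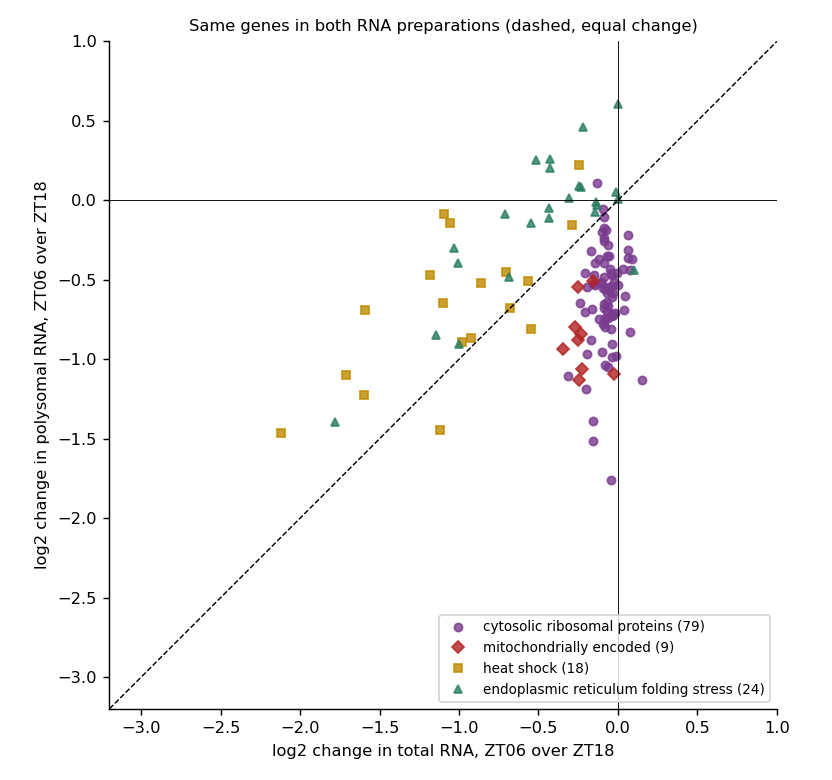
Log2 change in total RNA (x axis) against polysomal RNA (y axis), ZT06 over ZT18, 1 point per gene for 4 lists, with a dashed line of equal change. The 79 ribosomal protein genes run from 0.11 to -1.76 on the y axis while they stay near 0 on the x axis, and most heat shock and endoplasmic reticulum genes lie above the dashed line.

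The difference between the 2 preparations was tested gene by gene, as the interaction of preparation and time over 24 libraries. Against total RNA 0 of 11425 genes were called (0%), with 838 (7.33%) at an unadjusted p under 0.05 and a smallest adjusted p of 0.553. The median standard error of the difference was 0.37, and on simulated counts the test found 92% of 4-fold and 28% of 2-fold differences. Those differences were set only in genes that averaged 50 counts or more, so recovery at fewer counts was not tried. Among 79 ribosomal protein genes 77 had a difference below 0, with a median of -0.50, and 18 had an unadjusted p under 0.05, all 18 below 0. Over all genes with both values, 5223 of 10585 (49.3%) were below 0. Members of a list share their libraries, so counts of signs within a list are not counts of independent results. For the 9 mitochondrially encoded genes the median difference was -0.59, all 9 below 0 and 4 with an unadjusted p under 0.05. Of the 24 endoplasmic reticulum genes 1 was below 0 (median 0.34, 3 with an unadjusted p under 0.05), and of 18 heat shock genes 2 were (median 0.38, 2 with an unadjusted p under 0.05).

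Single genes that led this comparison were chosen after their values were seen. Pbrm1, a chromatin remodelling subunit, had 1.21 ± 0.20 in polysomal and 0.31 ± 0.12 in total RNA. Ebp had -1.13 ± 0.23 and -0.10 ± 0.11. In replicates 4 to 6 alone 8 genes were called against total RNA. Total RNA replicates 1 to 3 had 54.3 to 61.3 CPM of Dbp (per library total) at ZT06 and replicates 4 to 6 had 13.3 to 23.7, the reverse of polysomal RNA. The part of these differences in the comparison was not tested.

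Against nuclear RNA 0 of 11192 genes were called (0%), with 911 (8.14%) at an unadjusted p under 0.05. Bhmt, an enzyme of methionine metabolism, was nearest, with 0.58 ± 0.24 in polysomal and -1.26 ± 0.24 in nuclear RNA (adjusted p = 0.0598). Among the 12 genes with the smallest p were 3 of the clock. Tef had -1.21 ± 0.30 in polysomal, -0.18 ± 0.22 in total and 0.72 ± 0.24 in nuclear RNA (adjusted p = 0.106). Per3 had -0.93 ± 0.49, 0.52 ± 0.36 and 1.52 ± 0.30 in the same order (adjusted p = 0.288), and Arntl -0.75 ± 0.42, -2.53 ± 0.37 and -2.88 ± 0.34 (adjusted p = 0.347). These genes were also chosen after their values were seen. The count against nuclear RNA rose to at most 8, in replicates 4 to 6.

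The same contrast was called for 665 of 11799 genes (5.64%) in total RNA, 128 of 10979 (1.17%) in nuclear RNA and 0 of 12108 (0%) in total RNA of Bmal1-/- mice. The median standard error was 0.30 in polysomal, 0.18 in total and 0.27 in nuclear RNA. Of the 90 genes called higher at ZT06 in polysomal RNA, 89 had the same sign in total RNA and 56 were called there in the same direction. Of the 146 called higher at ZT18, 145 were measured in total RNA, 144 with the same sign and 77 called in the same direction. The share of all genes with the same sign in both preparations was 68.9%. The median change of the called genes was smaller in total RNA, at 0.68 and -0.64, than in polysomal RNA, where they had been selected. In nuclear RNA 83 of 89 and 119 of 143 had the same sign, beside 61.0% of all genes. In Bmal1-/- liver 44 of 88 (50%) and 93 of 142 (65.5%) did, beside 51.7% of all genes. The medians there were 0.00 and -0.08, and none was called. Cdkn1a had 0.05 and Tsc22d3 0.19 there, while Eif4ebp3 (-1.90), Acot3 (-2.24), Fmo2 (-1.93) and Ddit4 (-1.18) lay more than 1 below 0 without passing. Standard errors in Bmal1-/- liver are not given here, so these values do not show that a change was kept or lost. Whether these changes differ from wild type was not tested.

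The other 4 times of day place the 2 groups on the daily curve of each gene. Of the 90 genes called higher at ZT06, 58 had their highest mean of the 6 times at ZT06, 20 at ZT10 and 11 at ZT02, and 84 had their lowest at ZT18. Of the 146 called higher at ZT18, 112 had their highest mean at ZT18 and 19 at ZT14, and 99 had their lowest at ZT06 and 35 at ZT02. These counts follow in part from the contrast that chose the genes. Means of 6 libraries for Nr1d1 were 27.6 CPM at ZT02, 83.8 at ZT06, 60.8 at ZT10, 8.4 at ZT14, 2.6 at ZT18 and 2.6 at ZT22. Dbp, Tef and Usp2 had their highest means between the 2 groups: Dbp reached 129.97 CPM at ZT10, Tef 213 at ZT10 and Usp2 141 at ZT10, against 35.2, 74.1 and 10.7 at ZT06. Nfil3, a bZIP repressor, was lowest at ZT10 with 5.57 CPM and highest at ZT02 with 35.9. Cdkn1a rose from 7.1 at ZT10 to 169 at ZT22, and Cry1 from 6.8 at ZT06 to 41.4 at ZT22, both past their ZT18 means of 96.0 and 34.2. Rps21 ran from 225 at ZT06 over 309 at ZT10 to 426 at ZT14 and 422 at ZT18. Arntl was lowest between the 2 groups, at 0.2 CPM at ZT10, and highest at ZT02 with 11.1.

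**Figure D5:**
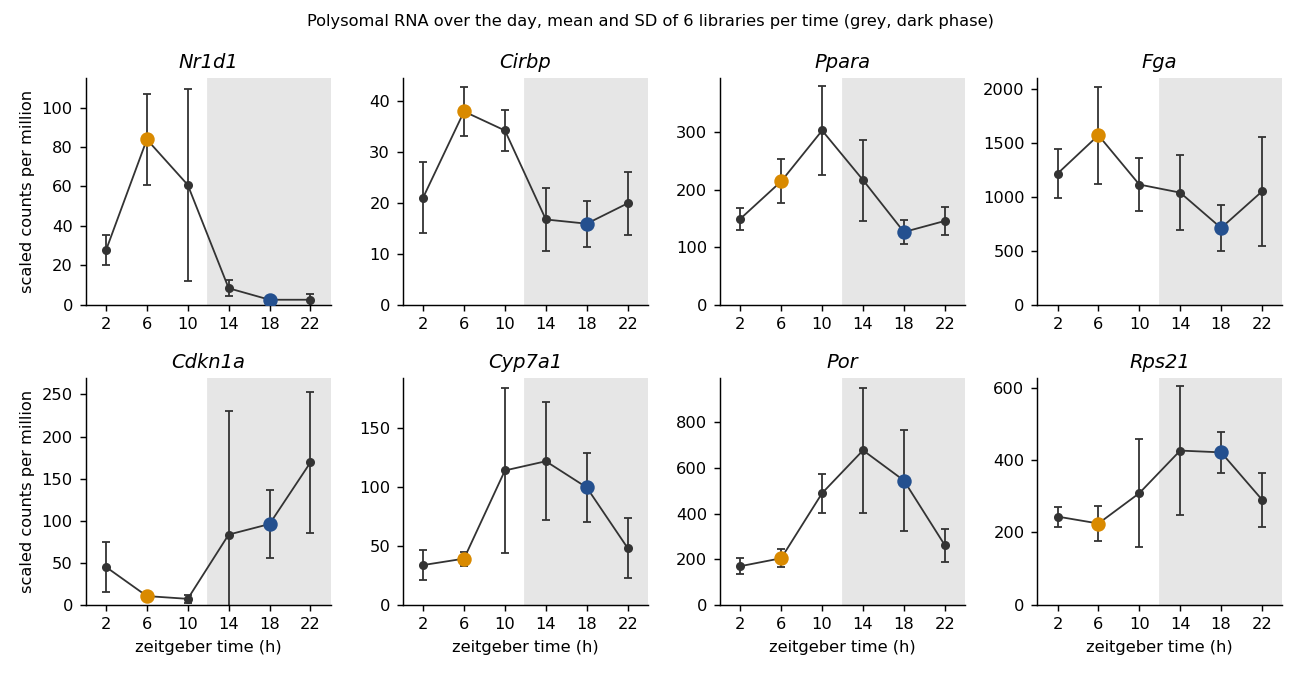
Mean and SD of 6 polysomal libraries at each of 6 times for 8 genes, in scaled CPM on axes that start at 0, with ZT06 in orange, ZT18 in blue and the dark phase in grey. Nr1d1, Cirbp and Fga are highest at ZT06, Cyp7a1 and Por are highest at ZT14, and Cdkn1a is highest at ZT22.

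Counts at single poly(A) sites gave fewer calls. Of 16579 sites tested, 76 (0.458%) were called, 32 higher at ZT06 and 44 higher at ZT18, and 72 of them lay in genes called as a whole. Coordinates are those of the authors' site list on mm10. Both sites of Nr1d1 passed: the one on chr11:98767928-98767975 changed by 4.69 ± 0.44 and the one on chr11:98768119-98768156 by 8.10 ± 0.63. The latter site took a median of 0% of Nr1d1 counts at ZT18, so its change is a ratio over counts near 0. Both sites of Nr1d2 passed, at chr14:18204053-18204118 (1.31 ± 0.25) and chr14:18204137-18204263 (2.05 ± 0.33). Dbp, which did not pass as a gene, passed at 1 of 2 sites, on chr7:45709862-45709997 (3.19 ± 0.61, adjusted p = 0.0275, mean 38.1 counts). The other, on chr7:45710015-45710158, held more counts (mean 61.3) and did not pass (2.33 ± 0.66, adjusted p = 0.140). Cdkn1a passed at 2 sites, Tsku at 2 and Tsc22d3 at 2, each pair in the same direction.

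The share of a gene's counts at each site was tested for 11060 sites in 3737 genes, and 0 (0%) were called by edgeR's quasi-likelihood test, with 402 (3.63%) at an unadjusted p under 0.05. The median size of the difference was 3.02 percentage points. On simulated counts this test found 93% of sites with a 4-fold and 52% with a 2-fold change in share. Those changes were set only in sites with 50 expected counts or more and a small share of their gene. Recovery at other sites was not tried. The leading sites, chosen after their values were seen, were the Nr1d1 site on chr11:98768119-98768156 and a site of Lrrc58. The Nr1d1 site took 19.99% ± 4.66 (SD, n = 6) of all Nr1d1 counts at ZT06 and 1.18% ± 2.63 (SD, n = 5) at ZT18, where the gene had few counts and 1 library had none. The Lrrc58 site on chr16:37888759-37888850 took 16.1% ± 3.65 (SD, n = 6) at ZT06 and 26.1% ± 3.004 (SD, n = 6) at ZT18, without overlap, and 15.96% and 17.4% in total RNA. The mean share at the most distal site over 3727 genes was 47.1%, 49.6% and 52.5% at ZT06 (lowest, median and highest library) and 47.9%, 49.1% and 50.5% at ZT18. The groups overlapped, with a difference of 0.409 percentage points (exact two-sided permutation test, p = 0.682).

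Markers of the cell types that liver can hold were followed beside these results. The 10 hepatocyte markers, albumin among them, summed to 45244 to 65083 CPM at ZT06 and 41896 to 97385 at ZT18. None of 63 tested markers of 12 cell types was called. Summed levels were 394 to 713 against 224 to 700.5 CPM for Kupffer cells and macrophages, 279 to 368 against 244 to 307 for sinusoidal endothelium, and 299.7 to 453 against 198 to 399 for stellate cells. Erythroid markers spread from 4121 to 15830 CPM at ZT06 and from 6311 to 13179 at ZT18, and neutrophil markers from 0.422 to 116 and from 0 to 30.01. Lung epithelial markers were at 225 and 451 CPM in replicate 1 of the 2 times, and their median was 1.6 and 0.6. Of 12 pancreatic acinar markers 9 and of 8 muscle markers 7 had under 1 count on average. In bulk RNA fewer cells of a type and less RNA per cell cannot be told apart, and the part of these cells in the results was not tested.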

How the data were processed

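Counts per gene and counts per poly(A) site were used as the authors deposited them, 1 column per library. Per the submitters' processing notes STAR 2.4.2a, edgeR and HOMER were used on mm10 (GRCm38.p5); counting rules and strand setting are not given in the sources used here. Genes that averaged 10 counts or more over the 12 libraries were tested with edgeR 4.0.16 (R 4.3.3): TMM factors, robust quasi-likelihood fit, Benjamini-Hochberg adjustment, threshold 0.05. Differences against total or nuclear RNA were interaction terms over 24 libraries. Site usage used the log of the gene's site total plus 0.5 as offset, for sites that took 5% or more of a gene with an average of 50 counts or more. Scripts were tested on simulated data of 10459 genes, where 50% of 2-fold and 94% of 4-fold changes were recovered. Changes were set in 100 genes per size, all averaging 50 counts or more, so recovery at fewer counts was not tried.

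Levels are CPM with TMM factors over the 36 polysomal libraries, but the no-overlap condition for the largest changes used CPM per library total. Named genes were all core clock genes, the 10 largest rises and 10 largest falls among called genes that averaged 50 counts or more and did not overlap in CPM, and up to 4 called members of each list by smallest p (otherwise its most counted member); other genes named were chosen after their values were seen, and some genes that the rule names are not reported here. Members and lists were chosen with earlier results of these data known. Positions in site lists are on mm10, and promoters are from RefSeq on GRCm38.p6. Among 30 pairs of replicates 0 were identical. Depth limits low genes, and intervals cover the spread between libraries only. Alternatives were DESeq2 1.42.0, other scalings and filters, all 36 libraries, sets of replicates, and leaving out each library.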

Additional observations from a re-analysis of the deposited data

Results flagged for a closer look

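Levels of 87 named genes were searched for single libraries far from the other 5 of their group, by the gap to the nearest library over the range of the group (Dixon's 95% critical value). Of 174 groups 21 passed it (12.1%). The limit is passed by about 1 in 20 groups of normally distributed, independent values. CPM were not log-transformed and the genes share libraries, so an excess over that rate was not tested. ZT18 replicate 1 was the library in 7 of them and ZT06 replicate 3 in 3. ZT06 replicate 1 stood apart for Nr1d1 at 128 CPM (next 83.4) and Fgg at 2909 CPM (next 1833). ZT06 replicate 2 stood apart for Ppara at 285 CPM (next 215). ZT06 replicate 3 stood apart for Arntl at 8.03 CPM (next 3.68), Fbxo21 at 195 CPM (next 108) and Creld2 at 44.4 CPM (next 19.6). ZT06 replicate 4 stood apart for Trf at 8423 CPM (next 6896). ZT06 replicate 5 stood apart for Nfil3 at 6.81 CPM (lowest, next 12.4) and Ebp at 435 CPM (next 281). ZT06 replicate 6 stood apart for Noct at 5.98 CPM (next 2.19). ZT18 replicate 1 stood apart for Fmo2 at 104 CPM (next 20.6), Usp2 at 114 CPM (next 43.5), Eif3f at 114 CPM (next 51.6), Mrpl34 at 755 CPM (next 417), Fmo5 at 822 CPM (next 548), Cyp2a5 at 143 CPM (next 90.5) and Trf at 10119 CPM (next 5907). ZT18 replicate 2 stood apart for Gpcpd1 at 29.3 CPM (next 16.4). ZT18 replicate 4 stood apart for Bhlhe41 at 0.445 CPM (next 0) and Ebp at 313 CPM (lowest, next 642). ZT18 replicate 6 stood apart for Nr1d2 at 46.2 CPM (next 36.6). Values are the highest of their group unless given as the lowest.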

How the results depend on the processing

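Of 87 tested named genes, the 64 called kept their direction under every alternative that tested them, and 5 of the 23 not called changed sign under at least 1. With library totals Cry2 went from -0.18 to 0.082, Csnk1d from -0.06 to 0.18, Igf1 from -0.11 to 0.13 and Mup13 from -0.18 to 0.062. Csnk1d was at 0.022 with replicate 1 left out of each group and ran from -0.15 to 0.0013 without 1 library. Csnk1e (0.02) was at -0.037 with a replicate block and -0.066 in replicates 1 to 3, and ran from -0.21 to 0.19 without 1 library. Igf1 was at 0.025 in replicates 1 to 3. Called genes (236) numbered 545 with DESeq2, 395 with library totals (chosen after seeing the data), 425 with a replicate block, 5 in replicates 1 to 3, 298 in replicates 4 to 6 and 93 to 290 without 1 library; the cause was not tested. Those at least 2-fold (163) numbered 270, 247, 225, 5, 213 and 84 to 188 in the same order. Called sites (76) numbered 134 with a minimum average of 50 counts, 109 with a replicate block, 0 in replicates 1 to 3 and 25 to 134 without 1 library. Site usage gave 0 calls without each library in turn. Against total RNA 8 genes were called in replicates 4 to 6. Against nuclear RNA 4 were called with at least 1 count, 1 each with library totals, with a minimum average of 50 counts and with replicate 1 left out, 3 with a replicate block and 8 in replicates 4 to 6. The difference in distal site share ran from -0.201 to 0.870 percentage points without 1 library. Same-numbered ZT06 and ZT18 libraries correlated in their deviations at 0.0343 to 0.505 (mean 0.179, beside -0.0335 for other pairs). Of 6 such pairs 5 were above 0.1, and 2 ZT06 libraries correlated best with their own number; since 1 pair was not above 0.1, the numbers were not taken as pairs. With a replicate block calls went from 6 to 14 among cytosolic ribosomal proteins, from 2 to 5 in lipogenesis, from 3 to 7 among PPAR alpha targets, from 1 to 3 among heat shock genes, from 1 to 2 in endoplasmic reticulum stress and among ATF4 targets, from 0 to 3 among mitochondrial ribosomal proteins, and from 0 to 2 in the respiratory chain, insulin, urea cycle and secretory protein lists. Of 64 named genes called, 32 kept the call without each library in turn; library totals ended 22 calls, and median-ratio size factors ended 0. Genes near the minimum of 10 counts are limited by depth.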

Other observations

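Several genes that mark time of day or a tissue differed between replicates 1 to 3 and replicates 4 to 6, in opposite directions in polysomal and total RNA (CPM per library total). Tsku at ZT06 had 1.64 to 5.18 CPM in polysomal replicates 1 to 3 and 12.7 to 18.5 in replicates 4 to 6, while total RNA had 5.27 to 6.55 and 1.39 to 1.92. Cfd, the adipocyte protease adipsin, at ZT06 had 0 to 2.37 and 8.86 to 14.7 CPM in polysomal RNA, and 14.3 to 31.1 and 0.137 to 0.549 in total RNA. AC122326.1 at ZT06 was at 0 in polysomal replicates 1 to 3 and at 5.14 to 6.67 in replicates 4 to 6, with 12.0 to 20.3 and 0 to 0.278 in total RNA. Egr1, an immediate early transcription factor, at ZT06 had 24.1 to 141 and 7.32 to 13.9 CPM in polysomal RNA, and 3.82 to 16.6 and 15.9 to 61.4 in total RNA. Groups 1 to 3 and 4 to 6 are numbers in the labels, and a cause was not tested.

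Ppp1ca, a catalytic subunit of protein phosphatase 1, and Tmem150a were at 0.411 to 2.26 and 0.548 to 1.82 CPM (per library total) in the 12 total RNA libraries of these times. Ppp1ca was at 123 CPM or more in the polysomal libraries other than replicate 1. Scgb1a1 was at 0 in the same 12 total RNA libraries.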
